A study of Homo sapiens with 8 samples.

Results

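The loci described here are those of 3 genes that control whether a cell divides, CDKN1A, CCND1 and MYC, in T47D-MTVL cells. This human luminal breast cancer line carries a progestin-responsive reporter. The members were taken by position alone, in windows chosen with earlier results of these data known. Every listed region that overlaps the gene or the 50 kb on either side was taken. The windows on hg19 ran on chromosome 6 from 36596000 to 36706000 for CDKN1A, on chromosome 11 from 69405000 to 69520000 for CCND1 and on chromosome 8 from 128698000 to 128804000 for MYC. Without the 50 kb flanks they leave a stretch, called the gene interval below, whose ends are rounded to whole kb. It spans 36646000 to 36656000 for CDKN1A, 69455000 to 69470000 for CCND1 and 128748000 to 128754000 for MYC. Where PR sites are placed at the start of CDKN1A below, the start of its interval is meant, since no annotated hg19 start was used. Across the 3 windows, 11 merged progesterone receptor (PR) sites were found, of 43784 in the genome. A merged site joins sites of different times that overlap by 1 bp or more.

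PR was mapped by chromatin immunoprecipitation and sequencing (ChIP-seq) in 5 samples. Cells were sampled without stimulation (0 min) and at 5, 30, 60 and 360 min of exposure to R5020, a synthetic progestin, at 10 nM. Unstimulated cells also gave 1 library each for histone H3 carrying 1 methyl group on lysine 4 (H3K4me1, found at enhancers and around promoters), H3 trimethylated at lysine 4 (H3K4me3, found at active promoters) and RNA polymerase II. Before all experiments the cells were deprived of steroids for 48 h in charcoal-stripped serum, then kept serum-free for 1 day, and chromatin was fixed in 1% formaldehyde for 10 min. With 1 library per group and no peak heights or read depths in the lists, no difference between times could be set against a spread between libraries, and no test was made. A site missing from a list may have been bound below the authors' threshold. The cell type was not checked against marker genes, since no hg19 annotation was used here.

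Progestins are known to drive breast cancer cells in culture through a limited round of division and then to hold them in the first gap phase of the cell cycle. MYC is a transcription factor that promotes growth and entry into the cycle. CCND1 encodes cyclin D1, which activates the kinases that phosphorylate the retinoblastoma protein, and CDKN1A encodes an inhibitor of cyclin-dependent kinases. PR binds DNA as a dimer at partly palindromic hormone response elements, and it can also act at genes through other DNA-bound factors. At the CDKN1A promoter it has been reported to act through Sp1, a factor that binds GC-rich boxes.

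The promoter of CDKN1A is printed because PR was listed close to the start of the gene interval. It is the 250 bases before the start of the gene in RefSeq on GRCh38.p14, chr6:36678464-36678713 on the + strand. Since the PR lists are on hg19, its position relative to the PR sites was not determined. Capitals mark the GC box, GGGCGG, searched on both strands.
CDKN1A promoter: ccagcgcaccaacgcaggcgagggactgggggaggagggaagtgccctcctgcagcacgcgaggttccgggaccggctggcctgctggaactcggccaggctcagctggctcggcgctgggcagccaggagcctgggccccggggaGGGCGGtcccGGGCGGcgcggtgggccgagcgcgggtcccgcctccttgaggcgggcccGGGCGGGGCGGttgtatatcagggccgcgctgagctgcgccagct
The GC box occurred 4 times, all on the strand shown, and 1 neighbouring pair of matches overlaps. This motif is common, with a match in 42.6% of the 35116 RefSeq promoters when the same 250 bases are taken. The core of the hormone response element, ACANNNTGT, which reads the same on both strands, had no match in this stretch and one in 4.61% of promoters. The half-site TGTTCT had none on either strand and one in 12.4% of promoters.

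With 50 kb on either side, CDKN1A was the locus with the most PR sites, and these were listed from 5 min of R5020 on. With 100 kb on either side the order turned round, with 20 listings over the 5 times at CDKN1A and 34 at MYC. With the 50 kb flanks, the lists held 0, 3, 5, 5 and 4 sites in the CDKN1A window at 0, 5, 30, 60 and 360 min. This corresponds to 45.5 sites per Mb at 60 min, against 8.05 per Mb over the whole 60 min list. When the genome was cut into consecutive tiles of the same 110 kb, 3.78% of tiles held 5 or more sites at 60 min. The tile shares were 9.79% for 3 or more sites at 5 min, 4.31% for 5 or more at 30 min and 6.25% for 4 or more at 360 min. No site was listed at 0 min, as in 97.4% of tiles, and the nearest unstimulated PR site was 808 kb away. The CDKN1A sites thus stood among the denser stretches of the hormone lists, as a description of single libraries. Tiles and per Mb values took in whole chromosome lengths and were not matched to the window for genes or chromatin marks.

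**Figure D1:**
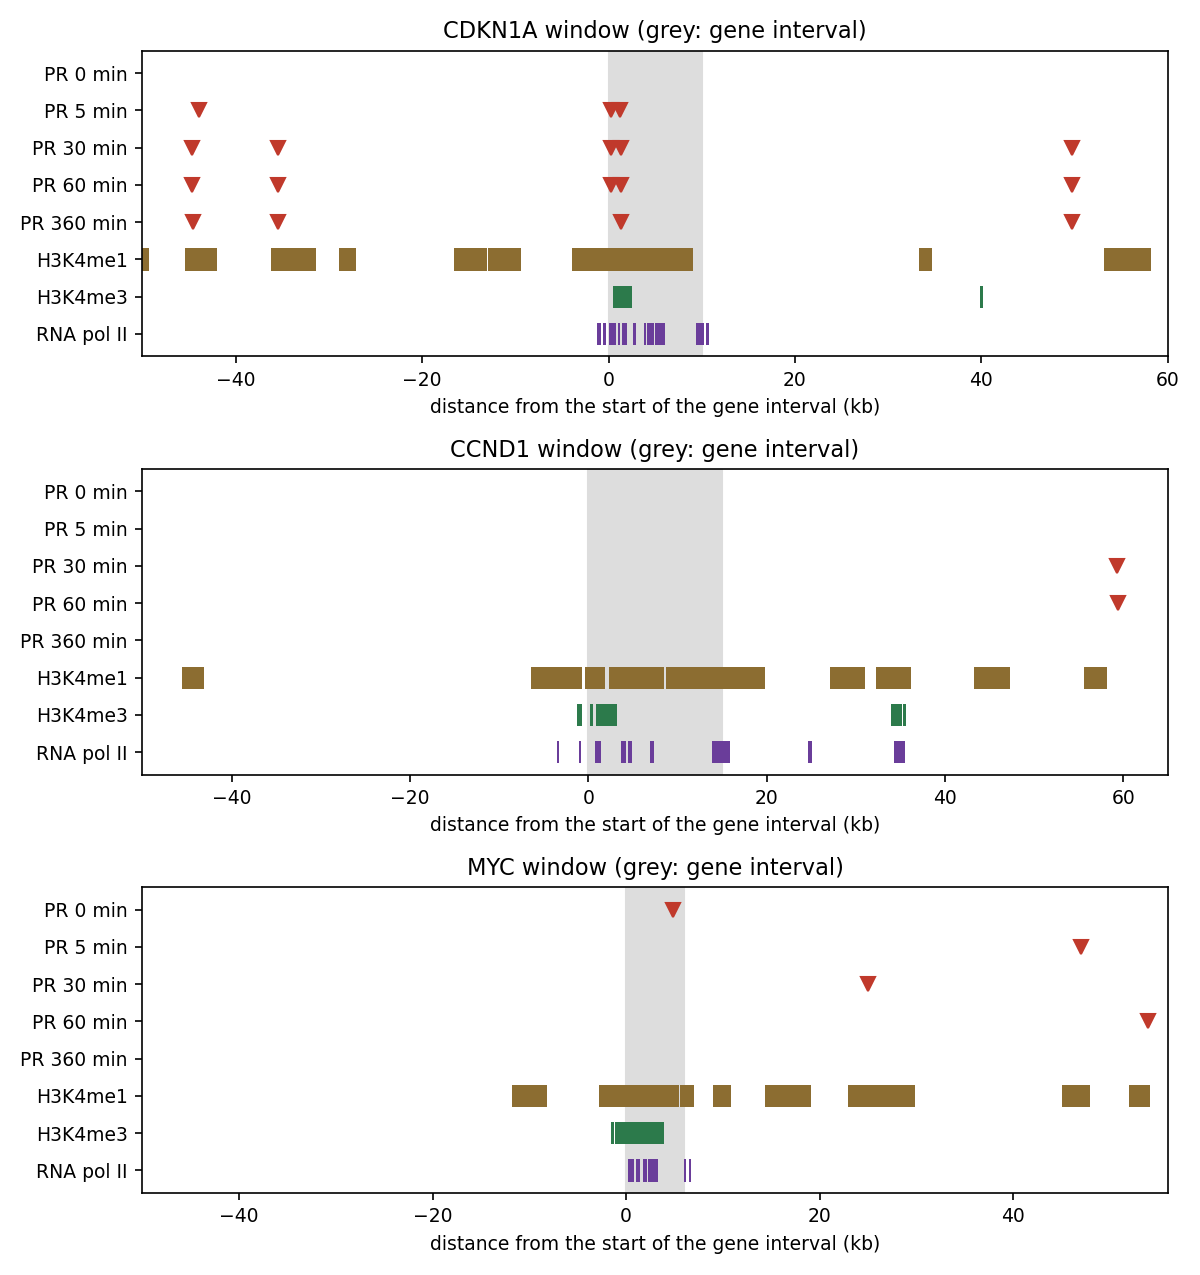
PR sites and chromatin regions in the 3 windows, by distance in kb from the start of the gene interval. Triangles mark midpoints of PR sites at each time and are not drawn to scale, while bars give H3K4me1, H3K4me3 and RNA polymerase II regions of unstimulated cells to scale. CDKN1A has 5 merged sites listed at 3 or more times, CCND1 has 1 site near the right edge, and the 4 sites of MYC are each listed at 1 time.

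Merged over time, the CDKN1A window held 6 sites, a number reached by 6.55% of tiles, and 5 of them were listed at 3 or more times. Of all merged sites in the genome, 40.1% were listed at 3 or more of the 5 times. In RefSeq the next genes are PANDAR before CDKN1A and DINOL after it, and the sites of the window were not assigned to any gene. A pair of the 5 sites lay at the start of the gene interval. The first, from 36646192 to 36646412, appeared in the 5, 30 and 60 min lists and was missing from the 360 min list, a pattern shown by 4.33% of all merged sites. It measured 217, 179 and 192 bp at these times, and its left edge stood at 36646195 in the first list and at 36646192 in the other two. The second lay 762 bp further on, from 36647174 to 36647501, and was the only one of the 6 present at all 4 times with hormone. Of all merged sites, 22.8% had that pattern. Its width was 212, 179, 254 and 272 bp at 5, 30, 60 and 360 min.

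Both sites at the start of CDKN1A were narrower than the median of their lists at 5, 30 and 60 min. At 60 min, 98.0% of all PR sites were at least as wide as the first and 78.6% at least as wide as the second, where the list's median was 313 bp. At 360 min the second site, at 272 bp, was close to the median of 265 bp, and 46.9% of the list was as wide or wider. Width is the only measure of a site that the lists give. It is not a measure of binding strength.

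The chromatin at the start of CDKN1A carried all 3 marks before hormone. One H3K4me1 region of 12960 bp, from 36642119 to 36655079, covered both PR sites, and 2.09% of H3K4me1 regions in the genome were as wide or wider. The H3K4me3 region, from 36646511 to 36648536, was 2025 bp wide, a width reached by 1.81% of H3K4me3 regions. It contained the second PR site at each of the 4 times with hormone. The first PR site ended 127 bp before it at 60 min and 99 bp before it at 5 min. RNA polymerase II was listed in 15 separate regions across the window, 12 of them in the gene interval. Tiles with as many made up 1.41% of tiles. This count is not a measure of polymerase amount, since the regions were narrow, with a median of 294 bp against 482 bp over the list. They covered 5.01% of the window, while the 10 polymerase regions of the CCND1 window covered 5.38% of that window. The first PR site overlapped a pair of the CDKN1A polymerase regions at 5, 30 and 60 min, by 191, 153 and 166 bp. The second touched polymerase regions by 56, 5 and 30 bp in the 5, 60 and 360 min lists, and in the 30 min list it lay 24 bp from the nearest one. It therefore sat mostly in a gap between polymerase regions, inside the H3K4me3 region.

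**Figure D2:**
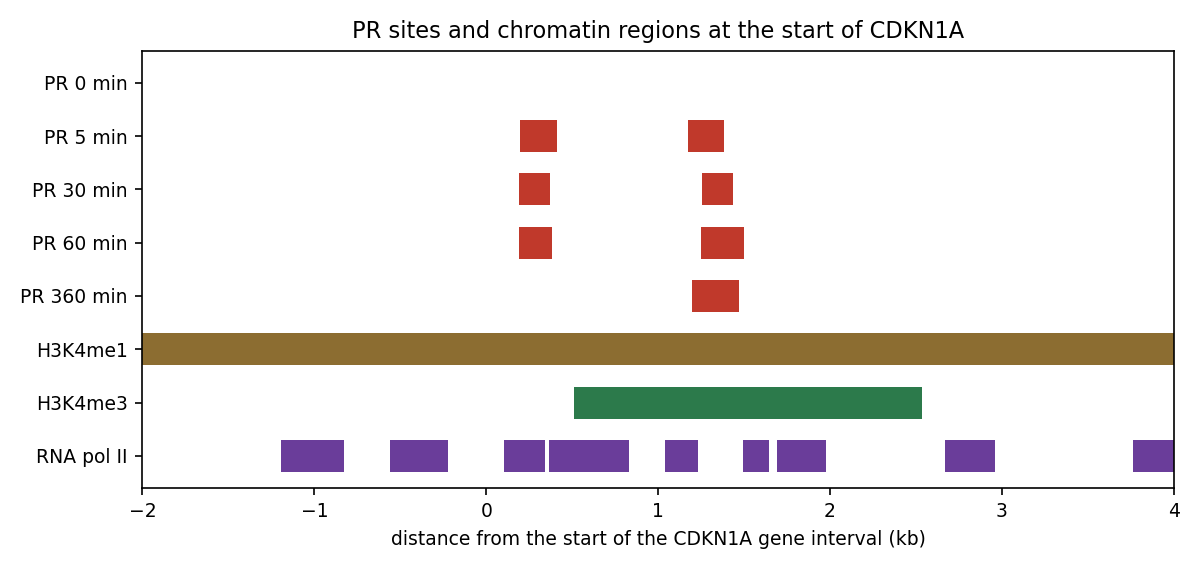
PR sites at each time and chromatin regions of unstimulated cells at the start of CDKN1A, drawn to scale by distance in kb from the start of the gene interval; the H3K4me1 region runs beyond both edges. The first PR site is listed at 5, 30 and 60 min and overlaps RNA polymerase II regions, and the second, listed at all 4 times with hormone, lies inside the H3K4me3 region.

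The remaining CDKN1A sites lay further from the gene. A site from 36601170 to 36601590 and another from 36610389 to 36610706, at 44.4 and 35.3 kb before the gene interval, were both listed at 30, 60 and 360 min. So was a site from 36695596 to 36695893, which lay 39.6 kb beyond the interval. Of all merged sites, 10.6% had exactly this pattern of times. The first of these was the widest listing of the window, with 372, 369 and 370 bp at 30, 60 and 360 min. At 5 min it was not listed, but a separate site of 218 bp, from 36601915 to 36602133, stood 325 bp away in the same H3K4me1 region of 3436 bp. That neighbour was listed at no later time. The site at 35.3 kb also lay in an H3K4me1 region, of 4869 bp. The downstream site was 3270 bp from the nearest H3K4me1 region and overlapped none of the chromatin regions.

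In all, 4 of the 5 CDKN1A sites of the 60 min list overlapped an H3K4me1 region, against 48.2% of all sites of that list. H3K4me3 regions held 1 of the 5, against 5.12%, and RNA polymerase II regions 2 of the 5, against 8.92%. The second site at the gene's start was the one that met all 3 kinds of region, as 2.80% of 60 min sites did, and the downstream site met none, as 50.4% did. In the 5 min list all 3 CDKN1A sites lay in H3K4me1 regions (51.0% of the list), 1 in H3K4me3 (4.45%) and 2 in polymerase regions (9.11%). In the 30 min list these counts were 4 of 5 for H3K4me1 (47.3%), 1 for H3K4me3 (4.27%) and 1 for polymerase (8.03%). In the 360 min list they were 3 of 4 (45.1%), 1 (4.19%) and 1 (7.74%). At each hormone time most of the CDKN1A sites were thus in chromatin already marked by H3K4me1 before hormone. The 4 lists largely repeat the same merged sites, so the times are not separate observations. H3K4me1 regions also covered 33.8% of this window, against 7.64% of the listed genome. The whole-list shares have exact (Clopper-Pearson) 95% intervals of at most 0.649 percentage points to either side, which cover counting error only. With 5 sites the counts at the locus allow no finer statement. The window held 9 H3K4me1 regions (10.4% of tiles had as many) and 2 H3K4me3 regions (20.4%). Of the 9 H3K4me1 regions, 3 held a PR site at 60 min, and 6 held none at any time. Over the genome, 12.2% of H3K4me1 regions held a 60 min site and 18.2% a site of any list.

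CCND1 had fewer PR sites than CDKN1A and more H3K4me3 regions. The number of regions depends on how a marked stretch is split: 1 CCND1 region ended at 69457305 and the next began at 69457360. H3K4me3 also covered more of the CCND1 window, 4.23% against 2.09% at CDKN1A. The CCND1 window held 1 PR site at 30 min and 1 at 60 min and none at 0, 5 or 360 min. Both listings formed a single merged site from 69514135 to 69514648, 44.1 kb beyond the gene interval and thus near the edge of the window. This pattern of times was found at 4.58% of merged sites. The site was 305 bp wide at 30 min and 513 bp at 60 min, and 8.40% of the 60 min list was as wide or wider. One site is an ordinary number for a stretch of this length, since 40.8% of 115 kb tiles held 1 or more at 60 min and 42.5% at 30 min. Over all times 57.2% of tiles had a merged site. Equally, 97.2% of tiles held none at 0 min, 60.1% none at 5 min and 59.1% none at 360 min.

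No PR site was listed in the CCND1 gene interval, or in the 50 kb before it, at any time. The nearest site at 5 min was 242 kb from the interval, and the nearest at 360 min was 68.6 kb from it. The interval itself was marked before hormone. It was touched by 4 H3K4me1 regions, 3 H3K4me3 regions and 5 RNA polymerase II regions. The widest polymerase region, from 69468912 to 69470859, lay at the end of the interval and measured 1947 bp, a width reached by 2.00% of polymerase regions. A second cluster of H3K4me3 and polymerase regions began 18.9 kb beyond the interval, at 69488916. In RefSeq the next genes after CCND1 are LTO1 and FGF19, and the cluster was not assigned to either. In the whole window there were 10 H3K4me1, 6 H3K4me3 and 10 polymerase regions. Tiles with as many made up 8.90%, 2.49% and 2.89% of the genome's tiles. These counts also depend on how a marked stretch is split into regions. None of these 26 regions held a PR site at any of the 5 times. In the genome 18.2% of H3K4me1 regions, 7.92% of H3K4me3 regions and 9.69% of polymerase regions held one, so regions without PR are the usual case. The PR site of the window lay outside all of them, at 999 bp from the nearest H3K4me1 region at 60 min and 1063 bp at 30 min.

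MYC differed from both in that no PR site of the window was seen at more than 1 time. The lists held 1 site each at 0, 5, 30 and 60 min and none at 360 min. Among tiles of the same 106 kb, 38.1%, 40.7% and 39.0% held 1 or more sites in the 5, 30 and 60 min lists and 61.0% held none in the 360 min list, so these counts are ordinary for the hormone lists. A site in the 0 min list is less common, with 2.57% of tiles. The 4 sites did not overlap each other, and 13.8% of tiles held as many merged sites. Over the genome, 43.2% of merged sites were listed at 1 time alone.

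The unstimulated PR site lay in the MYC gene interval, from 128752472 to 128753283, and was 811 bp wide. That is far wider than the median of 232 bp in the 0 min list, where 7 of 844 sites (0.829%) were as wide or wider. It lay inside an H3K4me1 region of 8284 bp, 511 bp beyond the last H3K4me3 region of the gene and 678 bp before the nearest polymerase region. It was not listed after hormone, like 87.1% of all 0 min sites. The other sites all lay downstream of the gene. The 30 min site, from 128772929 to 128773159, was 18.9 kb beyond the interval and 230 bp wide. The 5 min site, from 128794930 to 128795153, was 40.9 kb beyond it and 223 bp wide. The 60 min site, from 128801860 to 128802129, was 47.9 kb beyond it and 269 bp wide. These 3 widths were below the medians of their lists, which were 285, 269 and 313 bp.

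Each of the 4 MYC sites overlapped an H3K4me1 region, and each a different one. Thus 4 of the 8 H3K4me1 regions of the window held PR at some time. Over the genome, 42.1% of merged sites overlapped an H3K4me1 region, and 18.2% of H3K4me1 regions held a site of any list. Tiles with 8 or more H3K4me1 regions made up 12.0% of tiles. Of all sites in the 0 min list, 48.1% overlapped H3K4me1, 11.6% H3K4me3 and 13.2% polymerase regions. None of the MYC sites overlapped H3K4me3 or polymerase regions, which 4.10% and 6.99% of all merged sites did, so missing them is the usual case. The MYC interval was touched by 3 H3K4me3 regions and by 6 polymerase regions. The 3 H3K4me3 regions ran from 128746836 to 128748173, 128748185 to 128749913 and 128749942 to 128751961. They measured 1337, 1728 and 2019 bp and were parted by short gaps alone. Their single widths are therefore not comparable with that of the undivided region at CDKN1A. Tiles with 4 or more H3K4me3 regions and with 7 or more polymerase regions, the counts of the whole window, made up 6.23% and 4.23% of tiles.

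The chromatin marks covered more of each window than of the genome. H3K4me1 regions covered 33.8% of the CDKN1A window, 36.7% of the CCND1 window and 30.2% of the MYC window, against 7.64% of the listed genome. For H3K4me3 the covered shares were 2.09%, 4.23% and 5.06%, against 0.549%, and for RNA polymerase II they were 5.01%, 5.38% and 2.78%, against 0.641%. Over the 3 windows 9 of the 11 merged PR sites overlapped H3K4me1 regions, against 42.1% of all merged sites, 1 overlapped H3K4me3 regions, against 4.10%, and 2 polymerase regions, against 6.99%. Counted from the regions, 1 of 12 H3K4me3 regions held a PR site at 60 min and also over all times, against 5.56% and 7.92% in the genome. Of the 32 polymerase regions 3 held a site at 60 min and 4 over all times, against 6.84% and 9.69%. These shares of regions were near those of the genome. CDKN1A had the smallest H3K4me3 share of the 3 and was the only one with PR sites in H3K4me3 or polymerase regions.

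At the 60 min sites a table deposited by the authors gives reads from digestion with micrococcal nuclease (MNase), which cuts between nucleosomes and leaves nucleosome-sized DNA. The 2 conditions are R5020 and unstimulated, with 1 normalized value for each per site and no replicate. Their labels give no time or dose of R5020, so the exposure need not be that of the 60 min PR list. Over all 24436 sites of the authors' deposited table the medians were 75 reads after R5020 and 97 unstimulated. The median log2 ratio of R5020 over unstimulated, computed from the authors' deposited table, was -0.37 (quartiles -0.73 and -0.05). A single scaling factor between the libraries would shift all sites alike. Site values are therefore also given relative to that median.

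The 2 PR sites at the start of CDKN1A had far fewer MNase reads after R5020. In the authors' deposited table the first had 29 reads after R5020 and 118 in unstimulated cells, a log2 ratio of -2.02. For the second, the authors' deposited table gives 18 reads after R5020 and 63 in unstimulated cells, a log2 ratio of -1.81. Per 100 bp of site, the authors' deposited table gives 15.1 reads after R5020 and 61.5 in unstimulated cells for the first, and 7.09 after R5020 and 24.8 in unstimulated cells for the second. The medians of all sites per 100 bp were 23.1 after R5020 and 30.3 unstimulated (the authors' deposited table). The first site was thus above that median in unstimulated cells and below it after R5020. Of all sites with a ratio in the authors' deposited table, 0.741% were as low as the first or lower, and 1.49% as low as the second. Among the 2178 such sites in RNA polymerase II regions, whose median in the authors' deposited table was -1.02, these shares were 5.60% and 10.3%. The lower quartile of these polymerase sites stood at -1.41 and the upper at -0.66. Closest in kind to the second site were the 684 sites with a ratio that met all 3 kinds of region. From the authors' deposited table, their log2 ratios had a median of -1.16, a lower quartile of -1.62 and an upper quartile of -0.79. The second site, at -1.81, was below that lower quartile, and the share of these sites as low was not computed. Relative to the median of all sites in the authors' deposited table the log2 values of the first and second site were -1.65 and -1.44. Both lay below 1/3 of the unstimulated reads, as did 2.89% of all sites and 17.9% of those in polymerase regions in the authors' deposited table.

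**Figure D3:**
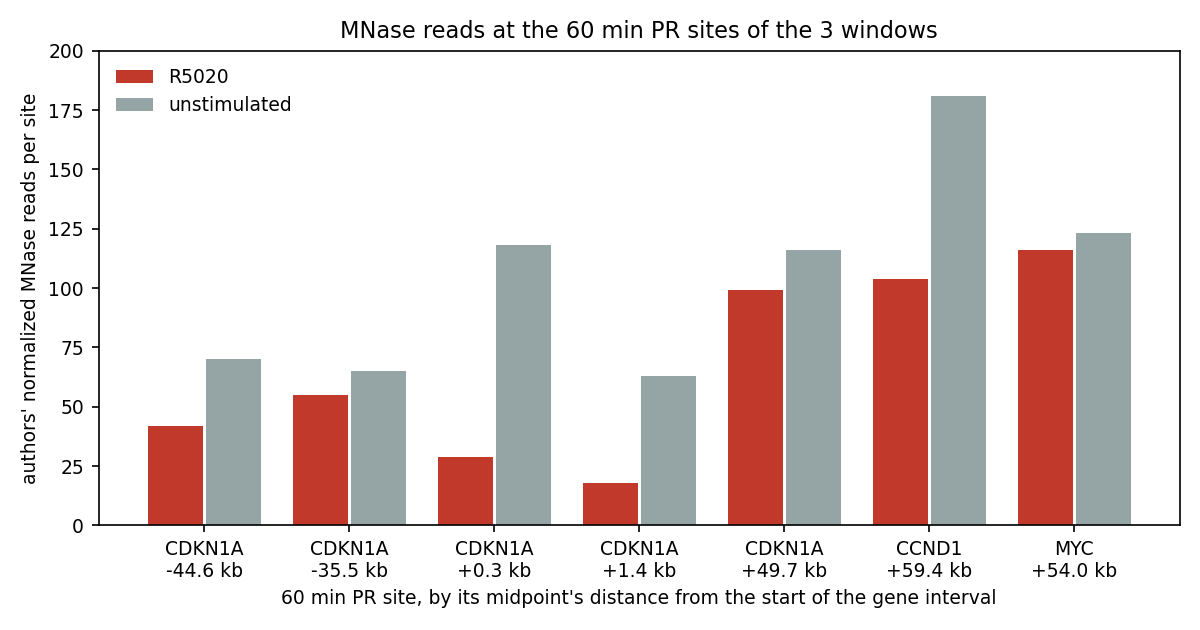
The authors' normalized MNase reads at the 7 PR sites listed at 60 min in the 3 windows, with 1 value per condition and no error, labelled by the distance in kb of each site's midpoint from the start of the gene interval. R5020 is the left bar of each pair and unstimulated the right bar; the 2 sites nearest the start of CDKN1A have 29 and 18 reads after R5020 against 118 and 63 in unstimulated cells.

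The distant CDKN1A sites differed less. In the authors' deposited table the site at 44.4 kb before the gene interval had 42 reads after R5020 and 70 in unstimulated cells, a log2 ratio of -0.74. For the site at 35.3 kb before it, the authors' deposited table gives 55 reads after R5020 and 65 in unstimulated cells. The downstream site had 99 reads after R5020 and 116 in unstimulated cells (the authors' deposited table). Their log2 ratios, -0.24 and -0.23, were lower than 0 as deposited but 0.13 and 0.14 above the median of all sites in the authors' deposited table. Of the 5 ratios at the locus, the 2 lowest were those of the sites at the gene's start. With so few sites and 1 value per condition, a separation from the 3 distant sites was not tested. Both sites at the start met polymerase regions, but the second by 5 bp alone. By midpoint 1 of them counted as inside a polymerase region, and with the wider 50% of polymerase regions 0 did. In the genome as a whole, the authors' deposited table gave median log2 ratios of -1.02 in polymerase regions and -0.19 outside all 3 kinds of region.

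The single 60 min sites of CCND1 and MYC had ratios well inside the range of the table. For CCND1 the authors' deposited table gives 104 reads after R5020 and 181 in unstimulated cells, a log2 ratio of -0.80, and 21.4% of all sites were as low or lower. For MYC the authors' deposited table gives 116 reads after R5020 and 123 in unstimulated cells, a log2 ratio of -0.08, with 72.7% of all sites as low or lower. Relative to the median of all sites in the authors' deposited table these became -0.43 and 0.29, so that the direction at MYC turned round. All 7 sites had fewer reads after R5020 as deposited, as did 78.0% of all sites in the authors' deposited table.

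**Figure D4:**
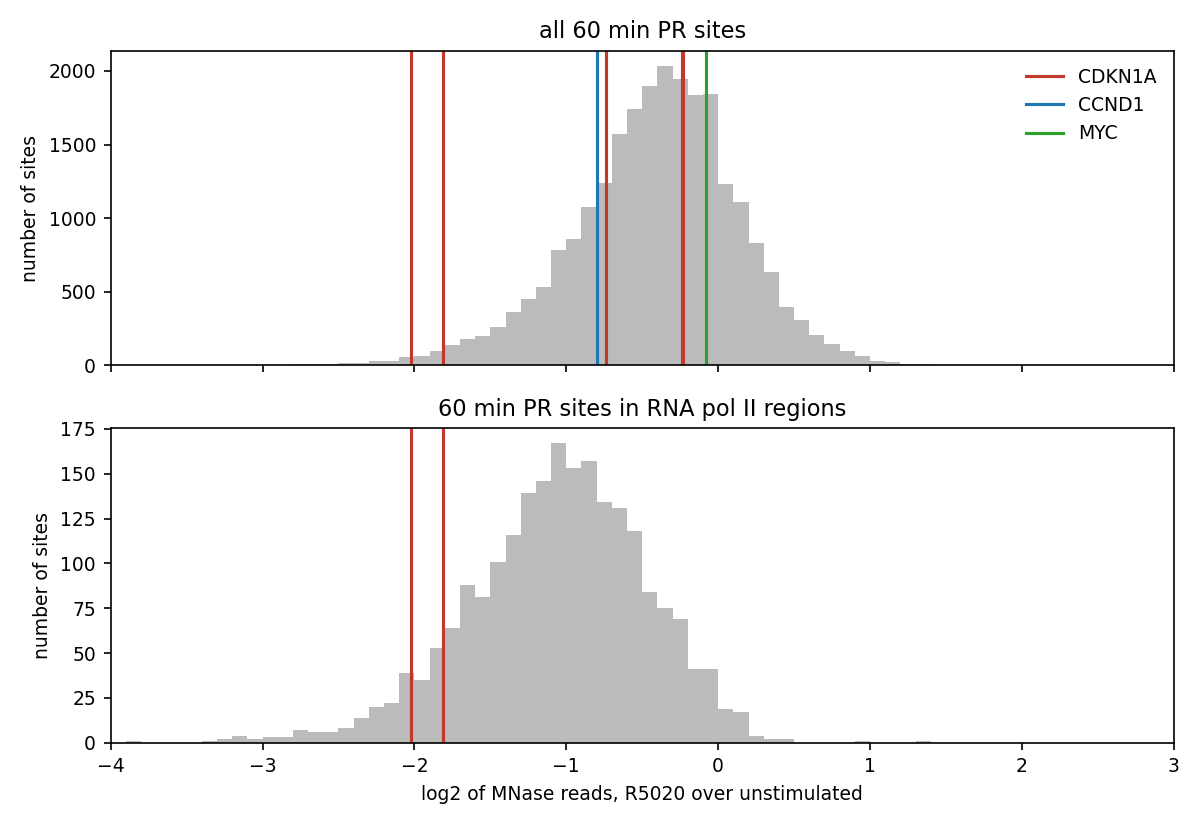
Number of 60 min PR sites by the log2 ratio of MNase reads, R5020 over unstimulated, for all sites (top) and for sites in RNA polymerase II regions (bottom); 1 site lies beyond the drawn range. Vertical lines mark the 60 min sites of the 3 windows, and the 2 sites at the start of CDKN1A, at -2.02 and -1.81, lie in the lower tail of the upper panel and at 5.60% and 10.3% of the lower one.

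The edge of the MYC window divides it from a much denser stretch. In the 200 kb that follow the window, from 50 to 250 kb beyond the gene interval, the lists held 0, 18, 20, 23 and 17 PR sites at 0, 5, 30, 60 and 360 min. Of consecutive 200 kb tiles, 0.185% held 18 or more sites at 5 min and 0.138% held 20 or more at 30 min. At 60 min 0.0462% held 23 or more, and at 360 min 0.158% held 17 or more. The stretch was picked after its density had been seen, so these shares were low in advance and are a description only. The first site beyond the window, from 128807835 to 128808161, was listed at 30, 60 and 360 min and stood 53.8 kb from the interval. In RefSeq the next gene after MYC is PVT1, a long noncoding RNA gene, and the sites were not assigned to it. On the other side of MYC the same span held 3, 2, 3 and 1 sites at 5, 30, 60 and 360 min. For CCND1 the spans before and beyond the window held at most 1 site at any time, and for CDKN1A at most 3. The ordinary count in the MYC window thus holds for its 50 kb flanks and not for a wider neighbourhood.

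**Figure D5:**
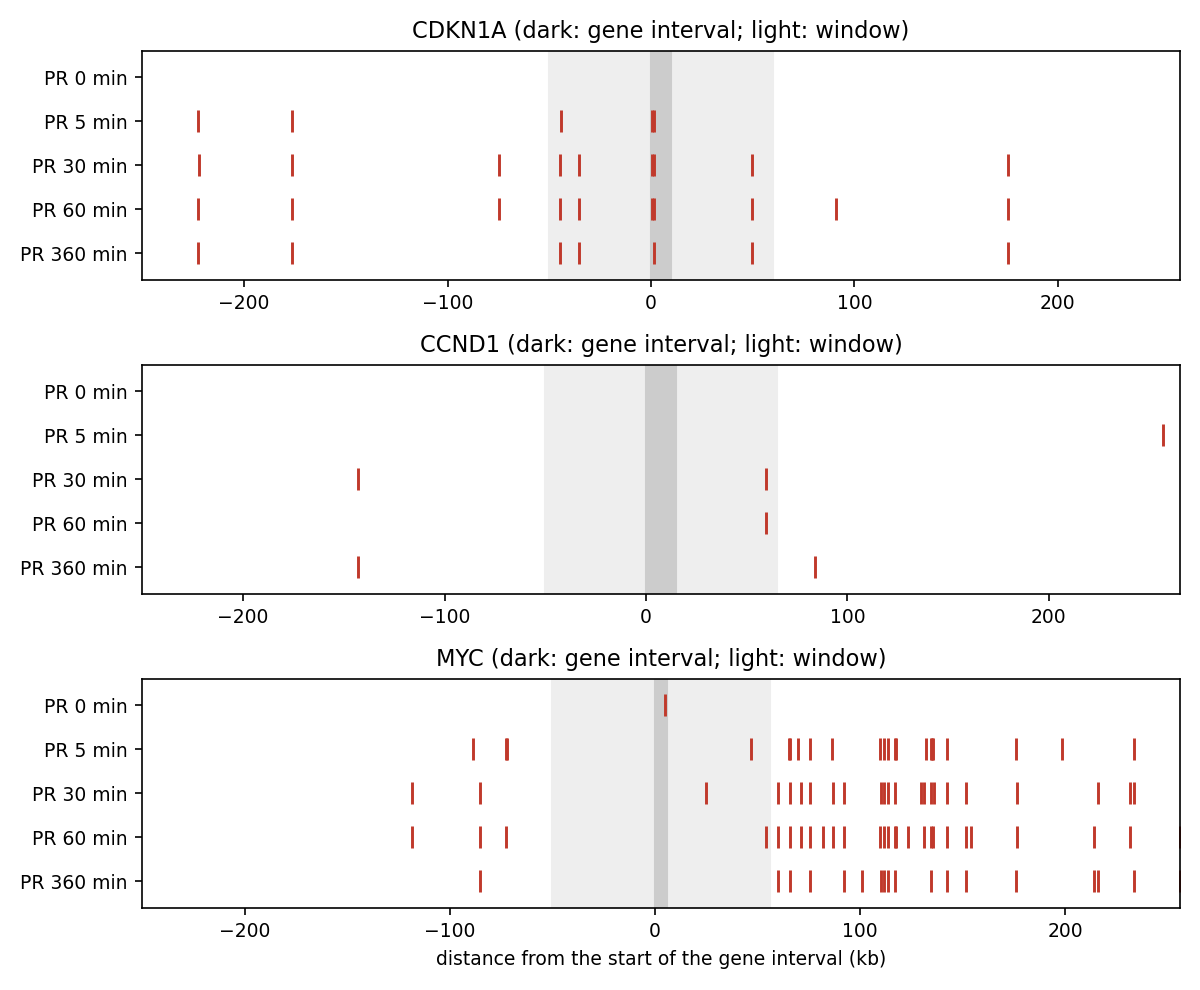
PR sites at each time within 250 kb of the 3 gene intervals, by distance in kb from the interval's start. Ticks mark midpoints; downstream of the MYC window lie 23 sites at 60 min, while the CCND1 window has a single site at 30 and 60 min.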

How the data were processed

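PR and chromatin regions were deposited by the authors as 1 list of coordinates per sample, without heights. The build was hg19, per the submitters' processing notes and the file headers. Not given in the sources used here were the aligner, peak caller, thresholds, input control and depth. A table of the 60 min PR sites, also deposited by the authors, holds normalized MNase reads, which are whole numbers handled as a score. The authors' ratio in it is unstimulated over R5020 (within 0.005), so log2 ratios here run the other way, without a pseudocount. The MNase libraries themselves were not analysed here.

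Regions were called overlapping at 1 bp or more. Tiles ran from the start of each chromosome to the last base listed in any file, without chromosome M, and the listed genome of 3035 Mb is the sum of these lengths. Every merged site was described. The windows and lists were chosen with earlier results of these data known. A list of cell cycle genes and a check of marker genes were planned and not run, since they need gene positions on hg19. Gene names and the promoter came from RefSeq tables of GRCh38.p14. Overlap counting was tested with simulated intervals. Alternatives covered flank length, overlap rules, width and MNase scaling. Python 3.11.15, NumPy 2.4.6, SciPy 1.17.1 and Matplotlib 3.10.9 were used.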

Additional observations from a re-analysis of the deposited data

How the results depend on the processing

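No paired analysis was possible because each group holds 1 sample. Of 80 comparisons of a summary value with its alternative, 53 stayed within the limits used, 26 moved and 1 turned round. The limits were 1.5 times for counts and 0.1 for log2 values. Among the 53 were counts of 0 that stayed 0. The midpoint rule and the wider 50% of regions can only keep or lower a count, so a 0 could not change there. The tally is therefore not a measure of how stable the results are. With 25 kb each side the listings over the 5 times were 7 for CDKN1A (17 with 50 kb), 0 for CCND1 (2) and 2 for MYC (4). With 100 kb each side MYC had 34. With 200 kb, chosen after the sites beyond the MYC window were seen, the numbers were 27, 5 and 80. From the wider 50% of each list CDKN1A kept 5 listings and MYC 1. Merged sites were the same in number under both other sharing rules. The 60 min CDKN1A sites in RNA polymerase II regions numbered 1 by midpoint and 0 with the wider 50% of polymerase regions, against 2. Within 1 kb of an H3K4me3 region lay 2 of them, against 1 overlapping, and within 1 kb of an H3K4me1 region the CCND1 site, 1 against 0. The median log2 MNase ratio at CDKN1A was -0.74, -0.62 with a pseudocount of 10, -0.37 with columns divided by their medians, and -1.02, -1.27, -0.49, -0.49 and -1.27 with each site left out in turn. With columns divided by their medians CCND1 had -0.43, against -0.80, and MYC had 0.29, against -0.08. Without the CDKN1A window the 3 loci together had 1, 2, 2 and 0 PR sites at 5, 30, 60 and 360 min, against 4, 7, 7 and 4, and without MYC none (0) at 0 min, against 1. Read depth is unknown, so absence from a list sets no upper limit on binding.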

Other observations

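Beyond the MYC window, the stretch from 50 to 250 kb downstream of the gene interval held 32 merged PR sites, of which 30 overlapped an H3K4me1 region, 2 an H3K4me3 region and 5 an RNA polymerase II region. Over the genome, 42.1%, 4.10% and 6.99% of merged sites did so. The share of the stretch that these regions cover was not computed, so the overlaps were not set against it. Listed at 3 or more times were 13 of the 32, and 9 were listed at all 4 times with hormone. Over the genome 40.1% and 22.8% of merged sites were so, shares near those of the stretch. Its 23 sites of the 60 min list had median MNase reads of 94 after R5020 and 148 in unstimulated cells (the authors' deposited table). The log2 ratio was below 0 at all 23, with a median of -0.52 and a range of -1.24 to -0.02 in the authors' deposited table. Of all sites in the authors' deposited table, 78.0% were below 0, and the median was -0.37, so the highest of the 23 lay above the typical site. All sites are an unlike baseline for this stretch. Of them 50.4% overlapped no chromatin region, and these had a median of -0.19 in the authors' deposited table. In the MYC window the single 60 min site had -0.08. The stretch was described after its density had been seen, and no test was made.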
